A study of Glycine max with 12 samples.

Results

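Of 56044 soybean genes measured in immature seed coats, 27 differed between the lines Clark 18a and Clark 8 in one direction and by a set minimum in all 6 matched pairs of libraries. A pair joins the Clark 18a and the Clark 8 library of the same seed coat region and the same biological repeat. The match is by repeat number, which across lines set apart mainly repeat 3. The black and yellow libraries of a repeat deviated together within a line, so the 6 pairs are not independent. The difference in a pair is Clark 18a minus Clark 8 in log2(RPKM + 0.5), where RPKM is the number of read hits scaled by the length of the transcript and by the hits of the library, and a gene was taken when all 6 differences had one sign and a size of at least 0.8. For each gene the transcript model with the longest cDNA was used. Genes of 3 stretches, on chromosomes 8, 10 and 11, were left out, which removed 2, 4 and 1 genes that met the differences. Of the 27 genes, 7 were higher and 20 lower in Clark 18a. The genes were thus selected on the RPKM values of all 12 libraries, and their line differences are given below as a description, with no test.

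Clark 18a carries the alleles i-i and k1, and Clark 8 carries i-k and K1, and both form seeds with a black saddle on a yellow coat. The 4 groups were Clark 18a black saddle, Clark 8 black saddle, Clark 18a yellow region and Clark 8 yellow region, each with 3 biological repeats, from greenhouse plants whose seeds weighed 100 to 200 mg. Coats were dissected into the parts that would later become the black saddle or the yellow sections, and the tissue was lyophilized. The lines differ at both loci, so the part of either in a line difference cannot be told apart.

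Soybean seed coat pigment is made by the flavonoid pathway. Alleles of the I locus act through small RNAs that silence chalcone synthase genes and so set where on the coat the pigment forms, and the title of the series links mutations in Argonaute5 with K1. Argonaute5 is one of the proteins that bind small RNAs and guide silencing. The files give identifiers without gene names, and no line of the reference table carries such an identifier. The 27 genes are therefore named by identifier, no role is given for any of them, the tissue label was not checked against marker genes, and no sequence of them is shown.

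Summed hits per library ran from 83123127 to 192296346, and the 4 libraries of repeat 3 were the shallowest. In repeats 1 and 2 the libraries were numbered by line, whereas the 4 libraries of repeat 3 were numbered together. With repeat 3 left out, 947 genes met the same differences in the remaining 4 pairs, 788 of them higher in Clark 18a. Without repeat 1 there were 74 and without repeat 2 there were 45, and the 27 genes are in each of these lists by construction. Of the 27 genes, 14 had their smallest difference in a repeat 3 pair, 11 of them in the black saddle, and 9 had it in yellow repeat 1. These are not counts of distinct profiles. The 11 include a set of 4 genes and the 9 a set of 6 genes that share a profile, both described below. The median size of the difference over the 27 genes was 1.73, 2.01 and 1.24 in repeats 1, 2 and 3 of the black saddle, and 1.52, 1.79 and 1.37 in those of the yellow region. The part of the library numbering in the differences of repeats 1 and 2 was not tested.

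**Figure D1:**
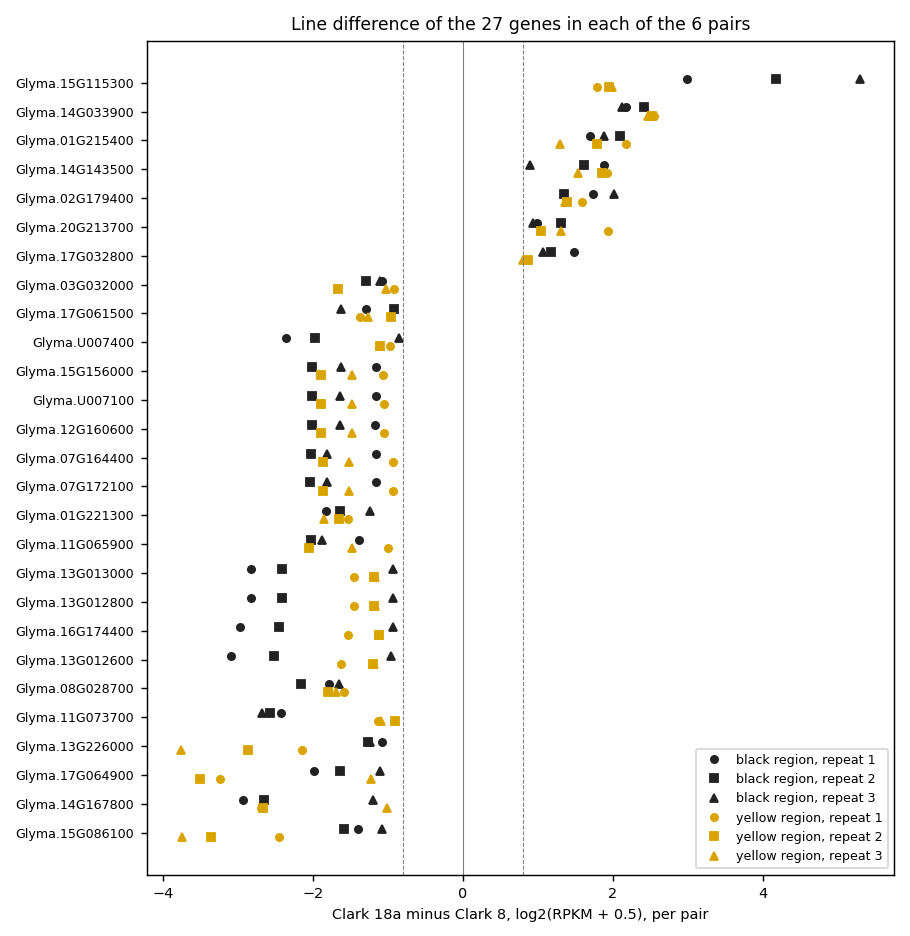
Line difference of each of the 27 genes in log2(RPKM + 0.5), Clark 18a minus Clark 8, with 1 point per pair (dark, black saddle; ochre, yellow region; circle, square and triangle, repeats 1, 2 and 3); dashed lines mark 0.8 in either direction. The 7 genes at the top were higher and the 20 below were lower in Clark 18a, and the 2 largest differences were those of Glyma.15G115300 in black repeats 2 and 3.

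The rule leaves a share of 0.0482% of all genes. Nearest inside the limit were Glyma.17G032800, whose smallest difference was 0.81, Glyma.U007400 at -0.85 and Glyma.14G143500 at 0.90. Nearest outside were Glyma.13G013600 at -0.795, Glyma.13G021700 at -0.78 and Glyma.08G027000 at 0.77. The values ran across the limit without a gap. Mean levels of the 27 genes over the 12 libraries ran widely, from 0.636 RPKM in Glyma.02G179400 to 165 RPKM in Glyma.U007400. Several lay near 1 RPKM, such as Glyma.07G164400 at 1.18 RPKM and Glyma.08G028700 at 0.823 RPKM. The median of the 27 was 5.73 RPKM, against 4.27 RPKM for the 30775 genes with at least 1 RPKM in at least 3 libraries. Their median coding length was 546 bases, against 1068 bases for those genes. Of the 27 genes, 26 passed that minimum, and Glyma.17G061500, with 2 libraries at or above 1 RPKM, did not.

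Of the 27 genes, 12 formed 3 sets with the same profile over the libraries, so the list holds 18 distinct profiles, 7 higher and 11 lower in Clark 18a. A shared profile here means a correlation of at least 0.99 over the 12 libraries in log2(RPKM + 0.5), a description chosen after the values were seen. Since the points share libraries and line differences, no test is attached to it. The hits, recovered as whole numbers from RPKM and cDNA length, show how alike the members of a set were. Glyma.13G012800 and Glyma.13G013000 had equal hits in 12 of 12 libraries, for example 1952 each in Clark 18a black repeat 1 and 10048 each in Clark 8 black repeat 1. Glyma.07G164400 and Glyma.07G172100 differed by at most 1 hit in any library, and so did Glyma.12G160600, Glyma.15G156000 and Glyma.U007100 among themselves. Glyma.13G012600 and Glyma.16G174400 differed by at most 87 hits, with 14628 and 14688 hits in Clark 8 black repeat 2. No label or header states how the authors treated reads with several matches. The value of a single gene among those with equal or nearly equal hits is therefore uncertain, and such genes are best read as 1 measurement.

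The first set joined 6 genes, all lower in Clark 18a: Glyma.07G164400 and Glyma.07G172100 on chromosome 7, Glyma.11G065900 on chromosome 11, Glyma.12G160600 on chromosome 12, Glyma.15G156000 on chromosome 15 and the unplaced Glyma.U007100. The lowest correlation between any pair of them was 0.996. The coding length is 1272 bases in Glyma.11G065900 and 546 bases in the others. Glyma.07G164400 stands for the set. It measured 0.484, 0.142 and 0.0907 RPKM in Clark 18a black repeats 1, 2 and 3, against 1.69, 2.12 and 1.57 RPKM in Clark 8 black. In the yellow region it measured 0.875, 0.303 and 0.374 RPKM in Clark 18a, against 2.12, 2.41 and 2.00 RPKM in Clark 8. The lines did not overlap in either region, and means were 7.50-fold and 4.21-fold lower in Clark 18a. Within Clark 18a the repeats were far apart: repeat 1 was 4.16 times the mean of the other repeats in black and 2.58 times in yellow, while the same ratio in Clark 8 was 0.918 and 0.960. The lowest value, that of Clark 18a black repeat 3, rested on 6 hits.

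Glyma.08G028700, outside this set, was also lowest in Clark 18a repeat 3. It gave 22, 8 and 0 hits in the Clark 18a black libraries, which is 0.143, 0.0773 and 0 RPKM, against 1.71, 2.08 and 1.07 RPKM in Clark 8 black. In the yellow region Clark 18a had 32, 18 and 0 hits, or 0.227, 0.121 and 0 RPKM, against 1.69, 1.65 and 1.11 RPKM in Clark 8. In both Clark 18a libraries of repeat 3 the gene is thus listed at 0. Its mean was 22.1-fold lower in Clark 18a black and 12.8-fold lower in Clark 18a yellow.

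The second set joined 4 genes read at high levels and lower in Clark 18a: Glyma.13G012600, Glyma.13G012800 and Glyma.13G013000, which lie 2 identifier steps apart from one another near the start of chromosome 13, and Glyma.16G174400 on chromosome 16. All 4 have cDNA lengths equal to their coding lengths, 429, 759, 759 and 1314 bases. Glyma.13G012600 measured 21.2, 43.2 and 38.5 RPKM in Clark 18a black, against 184, 250.3 and 75.1 RPKM in Clark 8 black. In yellow it measured 26.1, 28.9 and 11.3 RPKM in Clark 18a, against 81.2, 66.7 and 26.4 RPKM in Clark 8. The lines did not overlap in black, and in yellow the lowest Clark 8 library lay within the Clark 18a range. The size of the difference varied with the repeat: it was -3.09 and -2.52 in repeats 1 and 2 of the black saddle and -0.95 in repeat 3.

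The third set was Glyma.13G226000 on chromosome 13 and Glyma.15G086100 on chromosome 15, correlated at 0.993 but with different hits in every library. Glyma.15G086100 measured 9.95, 17.0 and 36.8 RPKM in Clark 18a black, against 26.9, 52.1 and 78.3 RPKM in Clark 8 black. In yellow it measured 4.43, 1.96 and 3.20 RPKM in Clark 18a, against 26.3, 24.7 and 49.2 RPKM in Clark 8. The black libraries of the lines overlapped, with repeat 3 the highest in both lines, and each pair still differed in one direction. In yellow the lines did not overlap. The mean was 2.47-fold lower in Clark 18a in black and 10.5-fold lower in yellow. Glyma.13G226000 gave similar ratios, 2.38-fold lower in black and 10.4-fold lower in yellow.

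**Figure D2:**
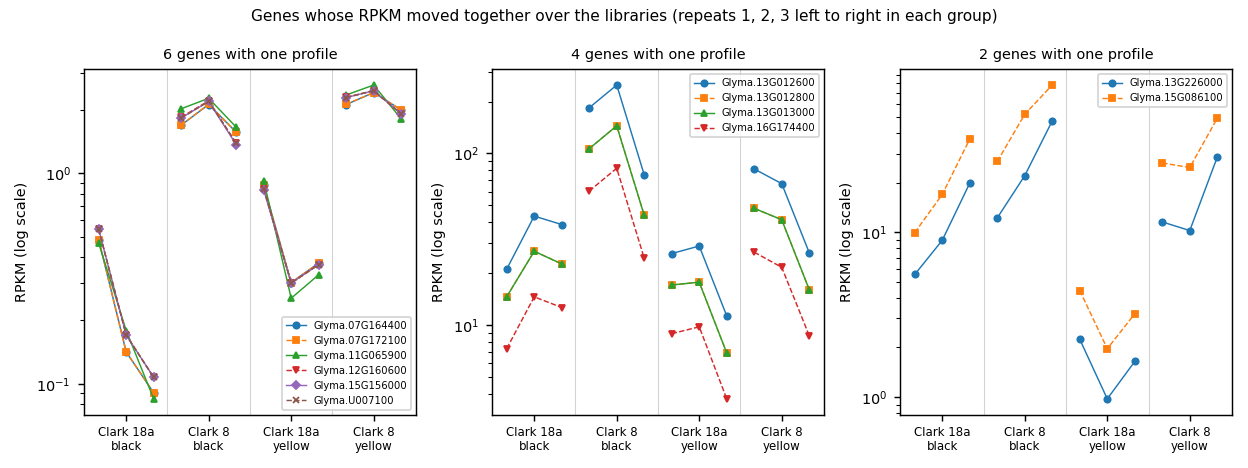
RPKM on a log scale of the genes in the 3 sets with a shared profile, over the 12 libraries in 4 groups, with repeats 1, 2 and 3 from left to right in each group; thin lines only link the points of a gene within a group. In each panel the genes run in parallel, and in the middle panel Glyma.13G012800 and Glyma.13G013000 cover each other.

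The 7 genes higher in Clark 18a each had a profile of their own. Glyma.15G115300 had the largest mean difference, 3.03. It measured 13.4, 38.6 and 40.9 RPKM in Clark 18a black, against 1.25, 1.67 and 0.551 RPKM in Clark 8 black, and 9.17, 10.6 and 17.4 RPKM in Clark 18a yellow, against 2.30, 2.37 and 4.01 RPKM in Clark 8 yellow. The lines were apart in both regions, with a ratio of means of 26.9 in black and 4.29 in yellow. Glyma.14G033900 was the steadiest of the 7, with differences of 2.12 to 2.55 in the 6 pairs. It measured 18.2, 19.1 and 22.4 RPKM in Clark 18a black, against 3.64, 3.17 and 4.77 RPKM in Clark 8 black. In yellow it measured 15.5, 15.2 and 21.4 RPKM in Clark 18a, against 2.24, 2.23 and 3.44 RPKM in Clark 8. Its libraries did not overlap between the lines in either region, and they did overlap between the regions of each line.

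Glyma.01G215400 averaged 10.5 ± 4.49 RPKM in Clark 18a black and 2.43 ± 1.12 RPKM in Clark 8 black, and 7.89 ± 0.0913 RPKM in Clark 18a yellow and 2.07 ± 0.770 RPKM in Clark 8 yellow (mean ± SD, n = 3 each, as for all means below). Glyma.14G143500 averaged 2.39 ± 1.23 RPKM in Clark 18a black and 0.480 ± 0.146 RPKM in Clark 8 black, with 2.63 ± 0.742 RPKM in Clark 18a yellow and 0.404 ± 0.108 RPKM in Clark 8 yellow. In both genes the lines were apart in each region. Glyma.02G179400 measured 1.31, 0.80 and 1.53 RPKM in Clark 18a black, against 0.0461, 0.0105 and 0 RPKM in Clark 8 black, and 1.32, 0.984 and 1.26 RPKM in Clark 18a yellow, against 0.104, 0.0688 and 0.185 RPKM in Clark 8 yellow. The Clark 8 libraries were near 0, resting on 4, 1 and 0 hits in black and on 14, 7 and 11 hits in yellow.

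The other genes higher in Clark 18a differed less. Glyma.17G032800 averaged 26.7 ± 1.74 RPKM in Clark 18a black and 11.1 ± 2.33 RPKM in Clark 8 black, and 24.3 ± 6.63 RPKM in Clark 18a yellow and 13.4 ± 3.95 RPKM in Clark 8 yellow. Glyma.20G213700 averaged 13.2 ± 5.27 RPKM in Clark 18a black and 6.03 ± 2.81 RPKM in Clark 8 black, where the lines overlapped, and 32.9 ± 8.55 RPKM in Clark 18a yellow and 12.6 ± 5.41 RPKM in Clark 8 yellow, where they did not. Repeat 1 was the lowest and repeat 3 the highest in each of the 4 groups.

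**Figure D3:**
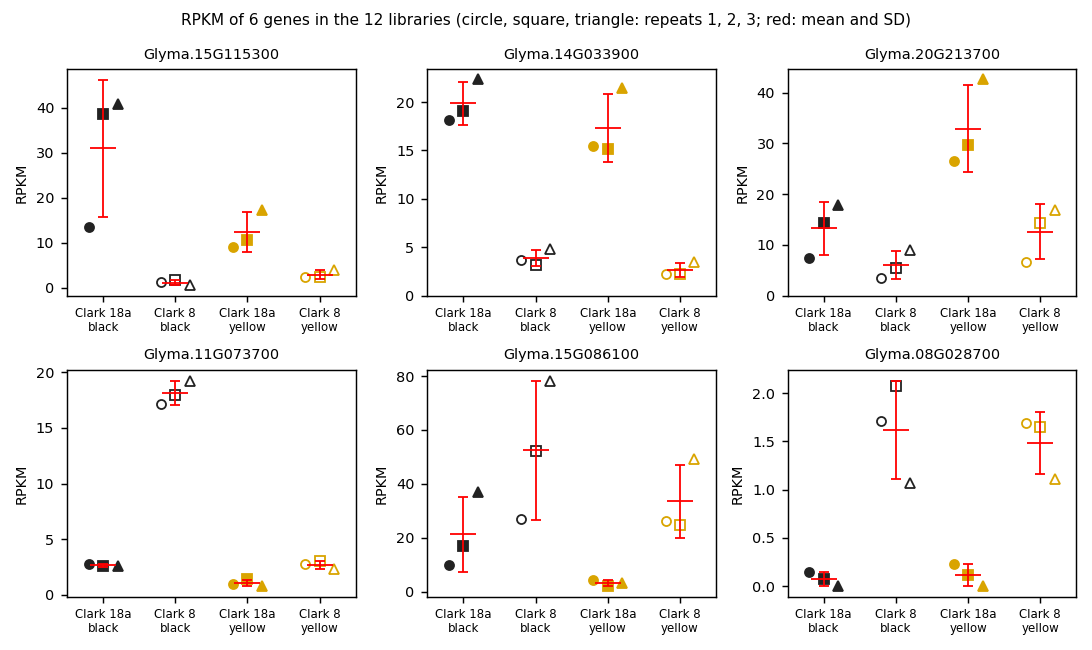
RPKM of 6 of the genes in the 12 libraries on linear axes, by group (filled, Clark 18a; open, Clark 8; dark, black saddle; ochre, yellow region; circle, square and triangle, repeats 1, 2 and 3), with the group mean and SD in red (n = 3). The upper row shows genes higher in Clark 18a and the lower row genes lower in it; Glyma.11G073700 was near 18 RPKM in Clark 8 black only, against at most 3.03 RPKM in the other groups.

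Of the genes lower in Clark 18a with a profile of their own, Glyma.11G073700 had repeats close to one another. It measured 2.78, 2.60 and 2.58 RPKM in Clark 18a black, against 17.2, 17.9 and 19.3 RPKM in Clark 8 black, and 1.00, 1.39 and 0.808 RPKM in Clark 18a yellow, against 2.80, 3.03 and 2.28 RPKM in Clark 8 yellow. The means were 6.83-fold lower in Clark 18a in black and 2.54-fold lower in yellow. Glyma.01G221300 measured 1.79, 2.23 and 2.55 RPKM in Clark 18a black, against 7.58, 8.03 and 6.69 RPKM in Clark 8 black, and 0.955, 0.958 and 1.03 RPKM in Clark 18a yellow, against 3.70, 4.07 and 5.02 RPKM in Clark 8 yellow. Its lines were apart in both regions by a similar factor, 3.39-fold in black and 4.36-fold in yellow. Both genes have a second nearby gene in the list, Glyma.11G065900 at 78 identifier steps before the first and Glyma.01G215400 at 59 before the second. Glyma.01G215400 differed in the opposite direction to Glyma.01G221300.

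Glyma.17G061500 and Glyma.17G064900 lie 34 identifier steps apart on chromosome 17. Glyma.17G061500 averaged 0.333 ± 0.0434 RPKM in Clark 18a black and 1.57 ± 0.571 RPKM in Clark 8 black, and 0.0451 ± 0.0370 RPKM in Clark 18a yellow and 0.760 ± 0.215 RPKM in Clark 8 yellow. Glyma.17G064900 averaged 0.945 ± 0.713 RPKM in Clark 18a black and 3.52 ± 0.719 RPKM in Clark 8 black, and 0.700 ± 0.496 RPKM in Clark 18a yellow and 7.33 ± 3.97 RPKM in Clark 8 yellow. The lines were apart in both genes and both regions. Glyma.03G032000 was low throughout, at 0.315 ± 0.0698 RPKM in Clark 18a black and 1.31 ± 0.0999 RPKM in Clark 8 black, and at 0.339 ± 0.119 RPKM in Clark 18a yellow and 1.44 ± 0.367 RPKM in Clark 8 yellow.

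Glyma.14G167800 varied widely between the repeats. It measured 5.65, 2.21 and 0.725 RPKM in Clark 18a black repeats 1, 2 and 3, against 46.4, 16.5 and 2.30 RPKM in Clark 8 black, and 13.9, 4.72 and 7.40 RPKM in Clark 18a yellow, against 91.7, 32.5 and 15.3 RPKM in Clark 8 yellow. Repeat 1 was the highest in all 4 groups, and the black libraries of the lines overlapped although each pair differed. Glyma.U007400, the gene with the highest level of the 27, measured 53.7, 98.9 and 220.5 RPKM in Clark 18a black, against 277, 390.3 and 398 RPKM in Clark 8 black, and 58.0, 49.8 and 67.7 RPKM in Clark 18a yellow, against 114, 108 and 146 RPKM in Clark 8 yellow. Its repeats were far apart in Clark 18a black and closer in the other groups, and the lines were apart in each region.

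Over the 27 genes, the libraries of the lines did not overlap for 23 in black, where 7.99% of the 30775 genes were so, and for 23 in yellow, where it was 17.9%. This follows from the choice of genes by the same contrast and adds nothing to it. The mean difference was larger in size in black for 19 genes and in yellow for 8. The 19 include all 6 genes of the first set and all 4 of the second, and the 8 include the third set. Genes of a set share a profile, so these are not counts of distinct profiles. Of the 27 genes, 4 have more than 1 model (Glyma.07G172100, Glyma.11G065900, Glyma.11G073700 and Glyma.14G033900), and in each the other models differed the same way by at least 0.91 in every pair, with hits that may be shared between models.

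Whether the genes also differed between the regions of the coat is a question that the rule did not use. For each gene, limma compared black with yellow within a line, on log2(RPKM + 1) with p adjusted over all 30775 genes. In bulk tissue, fewer cells of a kind and less RNA per cell cannot be told apart. In Clark 18a, 4 of 26 genes were called, 4 higher and 0 lower in black, where 15.0% of all genes were called, 8.86% higher and 6.11% lower. In Clark 8 it was 3 of 26, 3 higher and 0 lower, where 13.9% were called, 7.51% higher and 6.35% lower. Taken in both directions, the shares of the 26 genes, 15.4% in Clark 18a and 11.5% in Clark 8, are near those of all genes. In Clark 8 this depended on repeat 3. Without Clark 8 black repeat 3 the count was 6 of 26 (23.1%, against 10.8% of all genes), 4 of them the genes of the chromosome 13 and 16 set, which share a profile. Without all repeat 3 libraries it was 9 of 26 (34.6%, against 14.1%), the same 4 among them. The median difference over the 26 genes was 0.17 in Clark 18a and -0.000931 in Clark 8, against -0.02 and -0.07 over all genes.

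Glyma.11G073700 rose in the black saddle of both lines, by 0.83 in Clark 18a (limma SE 0.12, adjusted p = 0.00115) and by 2.37 in Clark 8 (limma SE 0.12, adjusted p = 3.13e-06). It was higher in black in 3 of 3 repeats of each line. Glyma.01G221300 rose as well, by 0.68 in Clark 18a (limma adjusted p = 0.00431) and by 0.68 in Clark 8 (limma adjusted p = 0.00461), again in 3 of 3 repeats. Both genes kept these calls in each of 21 alternative settings. Glyma.U007400 rose in black in Clark 8, by 1.52 (limma adjusted p = 0.0304), and gave 0.85 in Clark 18a (limma adjusted p = 0.198). The call was lost without Clark 8 black repeat 2 (adjusted p = 0.0981) or 3 (0.0841) and without Clark 8 yellow repeat 1 (0.0903) or 2 (0.101). Without Clark 18a black repeat 1, the difference in Clark 18a was 1.33 and was called (limma adjusted p = 0.0213).

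Glyma.15G086100 rose in the black saddle of Clark 18a, by 2.26 (limma SE 0.49, adjusted p = 0.00946), a call kept in all 21 alternatives, and gave 0.58 in Clark 8 (adjusted p = 0.503). Its companion in profile, Glyma.13G226000, rose by 2.11 in Clark 18a (limma adjusted p = 0.0227) and gave 0.61 in Clark 8 (adjusted p = 0.530). That call was lost without Clark 18a black repeat 2 (adjusted p = 0.0553) or 3 (0.0751), with voom on hits (0.0731), and when yellow repeat 2 (0.0876) or 3 (0.0514) of Clark 18a was dropped. No test of the lines against each other is given for these genes, since it would rest on the line differences that chose them.

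Libraries of a line with the same repeat number deviated together, and a block for the repeat number raised the calls. In Clark 18a, 6 of 26 genes (23.1%) were then called, where 25.7% of all genes were, and in Clark 8 9 of 26 (34.6%), where 24.3% were. With a separate block for the repeats of each line, chosen after the data were examined, 10 of 26 genes (38.5%) were called in Clark 18a, against 39.0% of all genes, and 10 of 26 in Clark 8, against 37.1%.

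With the block for the repeat number, Glyma.20G213700 fell in the black saddle of both lines. In Clark 18a it fell by 1.30 (limma adjusted p = 0.000512, against 0.0523 without the block). In Clark 8 it fell by 0.94 (limma adjusted p = 0.00312, against 0.158). Glyma.15G115300 rose in black in Clark 18a, by 1.15 (limma adjusted p = 0.0417, against 0.0767). Glyma.14G033900 rose in Clark 8 by 0.42 (limma adjusted p = 0.00825, against 0.165). The 4 genes of the chromosome 13 and 16 set rose in Clark 8 too, by 1.51 in Glyma.13G012600 (limma adjusted p = 0.0228, against 0.0926), 1.44 in Glyma.13G012800 and Glyma.13G013000 (0.0179, against 0.0975) and 1.47 in Glyma.16G174400 (0.0189, against 0.0853). The separate block by line added Glyma.14G167800, which fell by 1.42 in black in Clark 18a (limma adjusted p = 0.0172, against 0.345). In Clark 8 it fell by 1.40 (limma adjusted p = 0.0189, against 0.364). It also added 3 genes of the 6-gene set in Clark 18a, Glyma.07G164400, Glyma.07G172100 and Glyma.U007100, which fell with adjusted p-values of 0.0248, 0.0250 and 0.0498, against 0.301, 0.302 and 0.432.

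Single libraries also decided some calls outside the block. The black minus yellow difference of Glyma.15G115300 in Clark 18a was 1.65 and called without Clark 18a black repeat 1 (limma adjusted p = 0.00503). That of Glyma.20G213700 in Clark 18a was called without Clark 18a black repeat 3 (limma adjusted p = 0.0440), Clark 8 black repeat 3 (0.0444) or Clark 8 yellow repeat 1 (0.0338). In Clark 8, the 4 genes of the chromosome 13 and 16 set were called without Clark 8 black repeat 3, with 2.01 in Glyma.13G012600 (limma adjusted p = 0.0363). Glyma.17G064900 gave -1.17 in Clark 8 without Clark 8 yellow repeat 3 and was called (limma adjusted p = 0.0480).

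How far black minus yellow differed between the lines is the same quantity as how far the line difference differed between the regions, and the line differences chose the genes. It is therefore given as a value with no test. It was -1.54 for Glyma.11G073700 (SE 0.18), with black above yellow in both lines and by less in Clark 18a than in Clark 8. It was 2.01 for Glyma.15G115300 (SE 0.56), with black minus yellow at 1.15 in Clark 18a and -0.86 in Clark 8. In the fit over all genes limma called 1 of the 26 genes in this contrast, Glyma.11G073700, and 0.0162% of all genes. That call was lost in 17 of 21 alternative settings, and nothing is read from it.

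**Figure D4:**
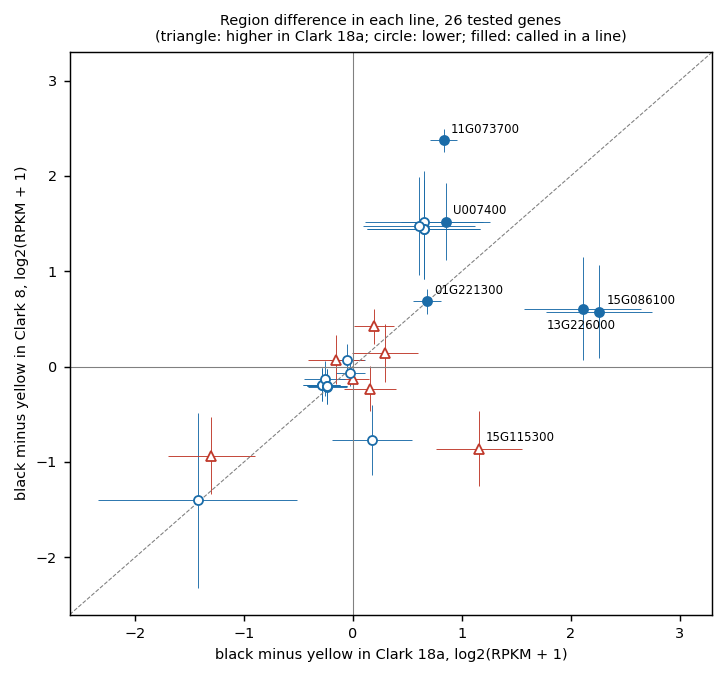
Black minus yellow in log2(RPKM + 1) in Clark 18a (x axis) and in Clark 8 (y axis) for the 26 tested genes, with limma standard errors; triangles are genes higher and circles genes lower in Clark 18a, filled symbols were called in at least 1 line, and the dashed line marks equal differences. Glyma.11G073700 lies above the line, Glyma.01G221300 lies on it, and Glyma.15G115300 lies in the quadrant of opposite signs.

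By identifier the genes were spread over the genome, with genes of nearly equal hits each counted at their own place. Glyma.12G160600, Glyma.15G156000 and the unplaced Glyma.U007100 differed by at most 1 hit in any library, so where their hits arose is uncertain. The same holds for Glyma.16G174400, which differed from Glyma.13G012600 on chromosome 13 by at most 87 hits. Of 25 placed genes, 4 lay on chromosome 13, 3 each on chromosomes 14, 15 and 17, and the others on 9 further chromosomes, and 2 were unplaced. To see whether a gene stood alone or in a stretch that differed, the 10 genes by identifier on each side were examined, keeping those expressed. Around the 22 placed genes outside the run on chromosome 13, 35 of 229 neighbours (15.3%) had one sign in all 6 pairs, where 13.4% of all expressed genes did. A difference of at least 0.4 in every pair was seen in 5 of the 229 (2.18%), where it was seen in 0.627% of all. Outside the chromosome 13 stretch described below it was seen in 0.476% of expressed genes, so the share near the 22 genes was higher. The median neighbour difference was 0.01. By this measure, with genes of nearly equal hits counted separately, most of the genes stood alone among neighbours that did not share their difference.

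The 5 neighbours were as follows. Glyma.14G034100, near Glyma.14G033900, went the other way, with 0.174 ± 0.0980 RPKM in Clark 18a black and 1.79 ± 0.249 RPKM in Clark 8 black. Glyma.08G028300, near Glyma.08G028700, also went the other way, with 9.20 ± 2.24 RPKM in Clark 18a black and 4.19 ± 1.36 RPKM in Clark 8 black. Around Glyma.08G028700, 7 of 16 expressed neighbours had one sign in all pairs, the most outside chromosome 13. Glyma.03G031600 was lower in Clark 18a like its neighbour Glyma.03G032000, with a mean difference of -1.02. Glyma.20G213600 was higher like Glyma.20G213700 (0.76), and Glyma.16G174500 lower like Glyma.16G174400 (-1.87). The differences of Glyma.16G174500 in black repeats 1, 2 and 3 were -3.51, -2.77 and -0.43. Those of Glyma.13G011500 on chromosome 13 were near them, at -3.32, -2.52 and -0.53. Whether the chromosome 16 pair is a place apart from chromosome 13 was not tested.

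The run on chromosome 13 was different: of 18 expressed neighbours of its 3 genes, 12 had one sign in all pairs and 10 differed by at least 0.4 in each. The stretch was then followed outward, with limits set after the values were seen, from Glyma.13G011200 to Glyma.13G024300. It holds 132 genes by identifier, of which 84 were expressed. Of the 84, 57 had one sign in all 6 pairs, 57 lower and 0 higher in Clark 18a, and 47 were lower by at least 0.4 in every pair. These 47 are 24.4% of the 193 expressed genes that differed so in the whole table, while outside the stretch the share of expressed genes was 0.476%. The stretch was read at high levels, with a median of 75.2 RPKM over its expressed genes and up to 1114 RPKM, against 4.27 RPKM for all expressed genes. It also held 14 of the 35 genes of the table whose hits equalled those of another gene in all libraries, among genes with at least 100 hits in total. Values of those genes are thus not independent measurements.

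Along the stretch, the size of the difference varied with the repeat in black more than in yellow. The median difference was -1.57 and -1.61 in repeats 1 and 2 of the black saddle and -0.64 in repeat 3, and -0.70, -0.73 and -0.72 in repeats 1, 2 and 3 of the yellow region. In black, the stretch held 2.37%, 3.10% and 1.96% of the summed RPKM in the Clark 18a libraries, against 6.32%, 8.38% and 3.28% in the Clark 8 libraries. In yellow, it held 2.93%, 2.66% and 1.22% in Clark 18a, against 4.27%, 4.01% and 1.79% in Clark 8. The share was lower in Clark 18a in all 6 pairs. The 3 genes of the list in this stretch are the ones whose smallest difference passed 0.8, and Glyma.13G013600 at -0.795 just missed it.

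**Figure D5:**
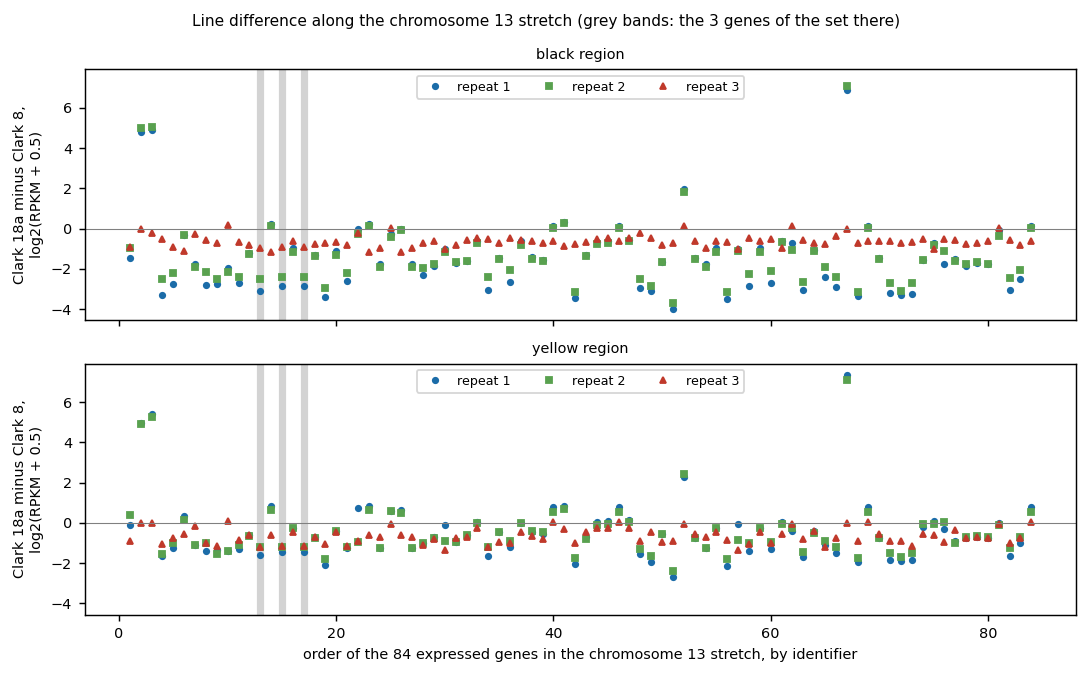
Line difference in log2(RPKM + 0.5), Clark 18a minus Clark 8, of the 84 expressed genes of the chromosome 13 stretch in identifier order, in the black saddle (top) and the yellow region (bottom); blue circles, green squares and red triangles are repeats 1, 2 and 3, and grey bands mark Glyma.13G012600, Glyma.13G012800 and Glyma.13G013000. Most points lie below 0, a few genes lie far above it in repeats 1 and 2, and in the black saddle the repeat 3 points mostly lie nearer to 0 than those of repeats 1 and 2.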

How the data were processed

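Polyadenylated RNA was read on Illumina equipment, per the labels' protocols, and Bowtie 1 is named in the submitters' processing notes. No label or header names the build, the annotation, the strandedness or the treatment of reads with several matches. RPKM were computed by the authors and deposited for 88647 models (56044 genes) together with model lengths. Multiplied by cDNA length, 100% of the low values (under 200 hits) lay within 0.05 of a whole multiple of 1 hit, and hits were recovered so. A hit may be counted for more than 1 model, so sums can exceed the reads.

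The longest cDNA model stood for a gene. The 30775 genes reaching an RPKM of 1 in 3 or more libraries were fitted on log2(RPKM + 1), which understates changes of low genes, with limma 3.58.1 in R 4.3.3: 4 group means, an intensity trend, all 12 libraries, Benjamini-Hochberg adjustment, two-sided, adjusted p under 0.05. The fit was also run on simulated hits drawn independently for each library. These had no deviation shared by a repeat, so the run says nothing about such deviations. No label says that the repeats are separate plants, so a p-value here covers the spread between these samples, which may be technical. Deviations from group means were correlated between libraries compared with each other. Equal repeat numbers gave 0.124 to 0.745 and others -0.608 to 0.290. Between the regions of a line, equal numbers gave 0.522 to 0.745. Across lines, repeats 1 and 2 were not clearly told apart. Clark 18a black repeats 1 and 2 correlated at 0.322 and 0.257 with Clark 8 black repeat 1, and at 0.290 and 0.124 with repeat 2. In yellow these were 0.331 and 0.0310, and 0.288 and 0.153. The numbers thus pair the regions of a line, and across lines they set apart mainly repeat 3. The genes and the lists were chosen with earlier results of these data known. Genes were named by mean difference (12 largest each way), level, runs of identifiers, region calls and nearness to the limit, and the remaining ones were named to account for all 27. Product lists could not be used, since no names are paired with identifiers. Neighbour limits, shared profiles and the chromosome 13 stretch were set after the values were seen.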

Additional observations from a re-analysis of the deposited data

Results flagged for a closer look

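The size of black minus yellow differed between the lines in 2 genes. This contrast is made of the line differences that chose the genes, so the values are a description and support nothing. In Glyma.11G073700 black minus yellow was 0.83 in Clark 18a and 2.37 in Clark 8, a difference of -1.54. In Glyma.15G115300 black was higher than yellow in 3 of 3 repeats of Clark 18a and lower in 3 of 3 repeats of Clark 8. The difference there was 2.01. No limma call is used here for either gene. Groups of 3 libraries are too small to look for single libraries far from the others.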

How the results depend on the processing

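The number of genes met by the rule was 27. It was 61 (31 higher and 30 lower in Clark 18a) with a pseudocount of 0.1, 14 with a smallest difference of 1, and 45 to 947 with a repeat left out, where fewer pairs have to agree. It was 20, 32 and 29 with a pseudocount of 1, with summed models and with size factors. Of 189 mean line differences recomputed, 168 moved by less than the spread between pairs and 21 by more. Of the signs, 0 changed, and with size factors all 27 genes kept one sign in the 6 pairs. The rule had already required one sign and at least 0.8 in every pair. The signs were thus nearly fixed in advance, and nothing is read from their being kept. Genes called between the regions of Clark 18a numbered 4 of 26 (15.0% of all genes called), and 10 with the replicate block within line (39.0%); leaving out a library gave 3 to 6. In Clark 8 they numbered 3 of 26 (13.9% of all genes called), and 9 with the replicate block by number (24.3%), 10 with the block within line (37.1%) and 9 without all repeat 3 libraries (14.1%); leaving out a library gave 2 to 6. With a minimum of 5 RPKM they numbered 4 of 15 in Clark 18a (13.7% of all genes called) and 3 of 15 in Clark 8 (12.3%). The block within line was chosen after the data were examined. Beyond the changes named in the report, neither replicate block changed another region call. In the contrast of the region differences, which the rule's own values make up and from which nothing is read, limma called 1 gene. It called 0 with a pseudocount of 0.5, a minimum of 5 RPKM, summed models, voom, either replicate block and without repeat 3. Leaving out a library gave 0 in most cases and 1 in the others. The cause was not tested. Low genes such as those of the 6-gene set rest on 5 to 147 hits per Clark 18a black or 18 to 266 per Clark 18a yellow library, which limits their values there.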

Other observations

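Inside the chromosome 13 stretch, 3 expressed genes outside the list stood far higher in Clark 18a than in Clark 8 in repeats 1 and 2 and were at or near 0 in repeat 3 of both lines. Glyma.13G021900 measured 63.0, 72.1 and 0 RPKM in Clark 18a black repeats 1, 2 and 3, against 0.0363, 0.0331 and 0 RPKM in Clark 8 black, and 81.2, 68.6 and 0 RPKM in Clark 18a yellow, against 0 in all 3 libraries of Clark 8 yellow. Glyma.13G011400 measured 33.4, 45.7 and 0.0294 RPKM in Clark 18a black, against 0.646, 0.901 and 0.121 RPKM in Clark 8 black. Glyma.13G011300 measured 13.6, 15.7 and 0 RPKM in Clark 18a black, against 0 in all 3 libraries of Clark 8 black. These genes were chosen after their values were seen, and no explanation was tested.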
